A study of Mus musculus with 12 samples.

Results

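The transcripts of 9 tubulin genes and of Map6, a protein that stabilizes microtubules, were followed in the left ventricle of mice after pressure overload. The 10 genes were selected by symbol from the 55401 rows of a table of raw read counts, and all 10 were among the 15764 genes with enough counts to be tested. They are the alpha tubulins Tuba1a, Tuba1b, Tuba1c and Tuba4a, the beta tubulins Tubb2a, Tubb2b, Tubb4b, Tubb5 and Tubb6, and Map6. These genes, and the lists of other microtubule genes used below, were chosen with earlier results of these data known. Counts of them called are therefore descriptions. Map6 was chosen by a value measured in these libraries, the difference between genotypes in its response to surgery, so that difference and the 4 group contrasts it is made of are given for Map6 as a description, with no test.

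The data are 12 RNA sequencing libraries, 3 in each of 4 groups. T497A mice carried a Prkca gene, for protein kinase C alpha, in which a threonine is replaced by alanine, and wild type (WT) mice did not. At the age of 10 weeks, mice of each genotype had either transverse aortic constriction (TAC), which narrows the aorta and loads the left ventricle with pressure (27-gauge needle), or a sham operation, and tissue was taken 5 weeks later, at 15 weeks. The groups are therefore T497A TAC, T497A sham, WT TAC and WT sham. The labels do not say whether the T497A allele was on 1 or both chromosomes, and do not state that every library is from a different animal. Each title carries a number of its own whose meaning is not given, and replicates differed by more than counting noise (chi-square per degree of freedom of 23.15 or more in each pair), but the spread behind each p-value is that of libraries and may be technical. The labels give left ventricle as the tissue and cardiomyocyte as the cell type, while the titles say only heart, the extraction protocol speaks of cardiac tissue, and no sorting is mentioned.

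Microtubules are hollow polymers of alpha and beta tubulin dimers. Mammals carry several genes for each subunit, whose proteins are nearly identical over the globular body and differ mainly in the short acidic tail at the carboxyl end, where enzymes remove or add back a terminal tyrosine and add chains of glutamate. In heart muscle cells, microtubules lie around the nucleus and between the contractile filaments, carry organelles and messenger RNA, and resist contraction, and a denser and more detyrosinated network is a known feature of hypertrophied and failing hearts.

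Totals ran from 36862004 to 46898344 counts per library. Mitochondrially encoded genes held 24.6% to 26.1% of the counts in T497A TAC libraries, 28.3% to 30.9% in T497A sham, 19.6% to 20.9% in WT TAC and 25.1% to 29.0% in WT sham. Prkca itself ran from 38.1 to 62.3 CPM over the 12 libraries and was not called between T497A and WT after TAC (log2 fold change -0.10 ± 0.126, adjusted p = 0.706) or after sham (-0.11 ± 0.126, adjusted p = 1). A base substitution does not alter a gene's count, so these levels do not check the genotype labels. Levels below are in CPM, for which each count was divided by its TMM-adjusted library total, and a gene was called changed where the adjusted p of edgeR's quasi-likelihood test was under 0.05. All 9 tubulin genes and Map6 had at least 45 counts in each library, the lowest being Tubb2b in T497A TAC replicate 1.

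The alpha tubulin messages of the WT heart moved in opposite directions after TAC: Tuba1a and Tuba1c rose and Tuba4a fell, and none of the 4 was called in T497A. The last codons of the messenger, which set whether a new alpha tubulin carries the terminal tyrosine, are shown for Tuba1b, Tuba1c and Tuba4a. The last 30 coding bases, stop codon included, are given 5′ to 3′ on the coding strand from the GENCODE M21 annotation of GRCm38, with a tyrosine codon directly before the stop in capitals.
Tuba1b, chr15:98931582-98931611, minus strand: gagggggaggaagaaggagaggagTACtaa
Tuba1c, chr15:99037980-99038009, plus strand: gaaggagacgatgagggtgaggaaTATtaa
Tuba4a, chr1:75215622-75215651, minus strand: tatgaggacgaggatgagggagaagagtag
Tuba1b and Tuba1c end in a tyrosine codon, as does Tuba1a, whose end is not shown, and Tuba4a does not. Over the whole coding sequence Tuba1a, Tuba1b and Tuba1c were 97.12% to 98.3% identical to each other and 84.73% to 85.26% identical to Tuba4a.

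Tuba1a, an alpha tubulin best known from developing neurons, had 30.6, 38.1 and 27.8 CPM in T497A TAC libraries and 23.4, 31.4 and 24.3 CPM in T497A sham libraries, against 48.9, 34.3 and 48.1 CPM in WT TAC libraries and 22.9, 28.6 and 25.1 CPM in WT sham libraries. All 3 WT TAC libraries lay above all 3 WT sham libraries, while the T497A TAC and T497A sham libraries overlapped. The log2 fold change of TAC against sham was 0.29 ± 0.164 in T497A (SE, adjusted p = 0.538) and 0.78 ± 0.164 in WT, 1.71-fold higher (adjusted p = 0.0047). For Tuba1c, a broadly expressed alpha tubulin, the values were 10.2, 8.94 and 9.50 CPM in T497A TAC libraries and 7.57, 9.38 and 9.37 CPM in T497A sham libraries, against 13.4, 14.6 and 19.8 CPM in WT TAC libraries and 8.82, 9.43 and 7.35 CPM in WT sham libraries. The WT TAC libraries stood above the other 9 libraries, which overlapped each other. The Tuba1c log2 fold change was 0.12 ± 0.153 in T497A (adjusted p = 0.83) and 0.90 ± 0.153 in WT, 1.87-fold higher (adjusted p = 0.00084).

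Tuba1b, also broadly expressed, did not pass the test in either genotype. It had 8.75, 15.2 and 13.2 CPM in T497A TAC libraries and 7.59, 11.5 and 15.1 CPM in T497A sham libraries, against 19.1, 15.8 and 16.3 CPM in WT TAC libraries and 12.1, 11.7 and 12.5 CPM in WT sham libraries. Its WT TAC libraries lay above its WT sham libraries without overlap, but the log2 fold change of 0.50 ± 0.231 in WT had an adjusted p of 0.141, and in T497A it was 0.12 ± 0.232 (adjusted p = 0.9).

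Tuba4a, the alpha tubulin typical of striated muscle, fell in WT hearts after TAC. It had 295, 358 and 409 CPM in T497A TAC libraries and 342, 346 and 496 CPM in T497A sham libraries, against 323, 269 and 287 CPM in WT TAC libraries and 408, 452 and 495 CPM in WT sham libraries. The WT TAC libraries lay below the WT sham libraries, and the T497A TAC and T497A sham libraries overlapped. The log2 fold change was -0.16 ± 0.156 in T497A (adjusted p = 0.772) and -0.62 ± 0.156 in WT, 1.54-fold lower (adjusted p = 0.0134). The WT call was lost when library totals alone were used as scaling (-0.43, adjusted p = 0.0564, where the median of all genes was 0.199), and, with adjusted p between 0.0502 and 0.0512, without WT sham replicate 3, WT TAC replicate 2 or WT TAC replicate 3.

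The location of these genes bears on how their reads could be counted. Tuba1a (chr15:98949837-98953703), Tuba1b (chr15:98931425-98934565) and Tuba1c (chr15:99029891-99038110) lie close together on chromosome 15, and 70.4%, 70.0% and 48.9% of their 75-base exon windows also occur in another annotated gene. Gm49450, a protein-coding gene on the same strand, overlaps Tuba1a and Tuba1b and had 0 counts in the 12 libraries. How reads in that overlap were counted is not given, and its effect on the Tuba1a and Tuba1b levels was not tested. Tuba4a (chr1:75214228-75219865) shares no window with another tubulin, but 33.4% of its windows overlap Stk16, a kinase gene on the opposite strand, and the sources do not say whether strand was used in counting. Stk16 had 12.1 to 16.3 CPM in the 12 libraries, and its log2 fold change after TAC was 0.00126 ± 0.115 in T497A (adjusted p = 0.998) and 0.06 ± 0.115 in WT (adjusted p = 0.766). When the counts of Tuba1a, Tuba1b and Tuba1c were summed into 1 row, the sum had a log2 fold change of 0.22 ± 0.13 in T497A (adjusted p = 0.562) and 0.73 ± 0.13 in WT (adjusted p = 0.0013).

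Among the beta tubulins, Tubb2a, Tubb2b and Tubb5 rose in WT hearts after TAC. Tubb2a, a beta tubulin prominent in neurons, had 15.1, 16.5 and 23.1 CPM in T497A TAC libraries and 14.8, 13.5 and 13.1 CPM in T497A sham libraries, against 30.8, 24.6 and 33.1 CPM in WT TAC libraries and 11.3, 13.2 and 12.3 CPM in WT sham libraries. Its WT TAC libraries stood above all other libraries, and it was the 1 tubulin gene whose T497A TAC libraries also lay above the T497A sham libraries without overlap. The log2 fold change was 0.40 ± 0.15 in T497A, which did not pass the test (adjusted p = 0.315), and 1.27 ± 0.151 in WT, 2.40-fold higher (adjusted p = 6.85e-05).

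Tubb2b, the close relative of Tubb2a known for its part in cortical development, had the lowest mean CPM of the 9 tubulin genes in each group. It had 1.00, 2.80 and 2.64 CPM in T497A TAC libraries and 1.79, 1.86 and 1.65 CPM in T497A sham libraries, against 3.90, 3.19 and 4.26 CPM in WT TAC libraries and 1.48, 1.61 and 1.34 CPM in WT sham libraries. T497A TAC replicate 1 was the lowest of all 12 libraries, and the WT TAC libraries were the highest. Its log2 fold change was 0.28 ± 0.305 in T497A (adjusted p = 0.797) and 1.36 ± 0.306 in WT, 2.56-fold higher (adjusted p = 0.00544). The coding sequences of Tubb2a (chr13:34074274-34078007) and Tubb2b (chr13:34126748-34130466) were 96.49% identical, and 40.2% of the Tubb2a windows also occur in Tubb2b, so reads could be split between them. Their summed counts had a log2 fold change of 0.39 ± 0.152 in T497A (adjusted p = 0.339) and 1.28 ± 0.153 in WT (adjusted p = 7.98e-05).

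Tubb5, the most widely expressed beta tubulin, had 66.8, 97.4 and 85.8 CPM in T497A TAC libraries and 63.1, 78.6 and 81.5 CPM in T497A sham libraries, against 109, 113 and 120.4 CPM in WT TAC libraries and 74.3, 72.5 and 74.5 CPM in WT sham libraries. The WT TAC libraries were all above the other 9 libraries. The log2 fold change was 0.16 ± 0.121 in T497A (adjusted p = 0.666) and 0.63 ± 0.122 in WT, 1.55-fold higher (adjusted p = 0.0023). No 75-base window of Tubb5 (chr17:35833921-35838306) occurs in another annotated gene.

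Tubb4b and Tubb6 did not pass the test in either genotype. Tubb4b (chr2:25222160-25224702), a beta tubulin common in cilia, had 111, 102 and 136 CPM in T497A TAC libraries and 107, 114 and 143 CPM in T497A sham libraries, against 129, 118 and 144 CPM in WT TAC libraries and 98.1, 109 and 110.2 CPM in WT sham libraries. Tubb6, a beta tubulin that rises in regenerating skeletal muscle, lies on chromosome 18 and had 15.3, 17.7 and 17.2 CPM in T497A TAC libraries and 18.9, 15.8 and 24.2 CPM in T497A sham libraries, against 23.6, 20.5 and 22.1 CPM in WT TAC libraries and 16.8, 20.4 and 15.2 CPM in WT sham libraries. For both genes the WT TAC libraries lay above the WT sham libraries by a narrow margin, and the T497A TAC and T497A sham libraries overlapped. The log2 fold change of Tubb4b was -0.06 ± 0.124 in T497A (0.0075 with library totals alone) and 0.30 ± 0.125 in WT (adjusted p = 0.101). That of Tubb6 was -0.23 ± 0.144 in T497A and 0.33 ± 0.144 in WT (adjusted p = 0.11).

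**Figure D1:**
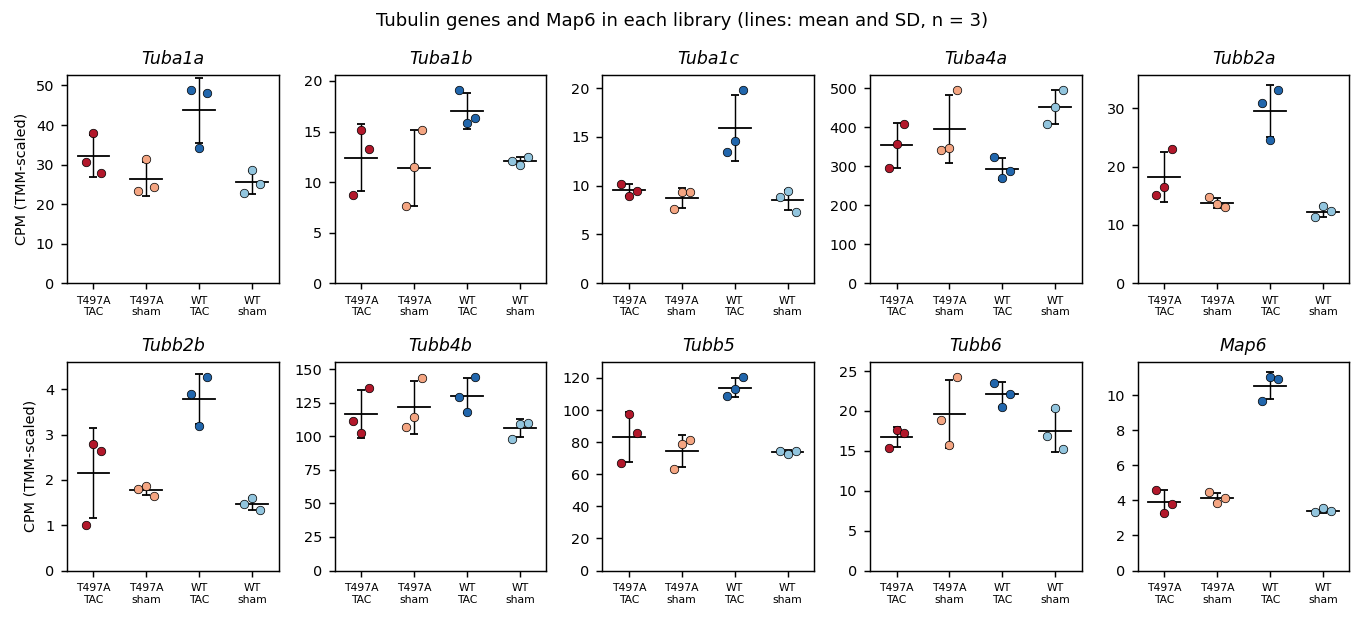
Level of each of the 10 genes in CPM (TMM-scaled CPM, linear axes from 0) in the 12 libraries. Each point is a library, and the lines are the mean and SD of 3 libraries. The WT TAC libraries stand above the other 9 for Tubb2a, Tubb2b, Tubb5, Tuba1b (by a narrow margin), Tuba1c and Map6, and below the WT sham libraries for Tuba4a.

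The genes were chosen with earlier results of these data known, so the shares of all genes given below are no unbiased comparison. Counted together, 0 of the 9 tubulin genes were called between TAC and sham in T497A, where 0.114% of all tested genes were called. In WT, 6 of 9 were called, where 25.0% of all tested genes were called. Of those 6, 5 were higher after TAC (Tuba1a, Tuba1c, Tubb2a, Tubb2b and Tubb5), a direction called for 12.3% of all genes, and Tuba4a was lower, called for 12.6%. At an unadjusted p under 0.05 the counts were 1 of 9 in T497A and 8 of 9 in WT. Of all 15764 tested genes, 1837 in T497A and 5719 in WT were under that threshold, so the T497A count was near the share of all genes. DESeq2 and limma-voom both called 0 in T497A and 6 in WT. The shares of all genes that these 2 tools called are not given here or below. The median log2 fold change over the 9 genes was 0.12 in T497A and 0.63 in WT, against 0.00694 and 0.014 over all tested genes. Libraries of TAC and sham did not overlap for 1 of 9 tubulin genes in T497A (15.4% of all genes) and for 9 of 9 in WT (42.2% of all genes). With TAC averaged over both genotypes, the same 6 genes were called (22.4% of all genes), with adjusted p from 0.00013 to 0.0259. The averaged Tuba4a call was lost, with adjusted p from 0.0587 to 0.0619, without WT sham replicate 3, WT TAC replicate 2, WT TAC replicate 3 or T497A TAC replicate 2.

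**Figure D2:**
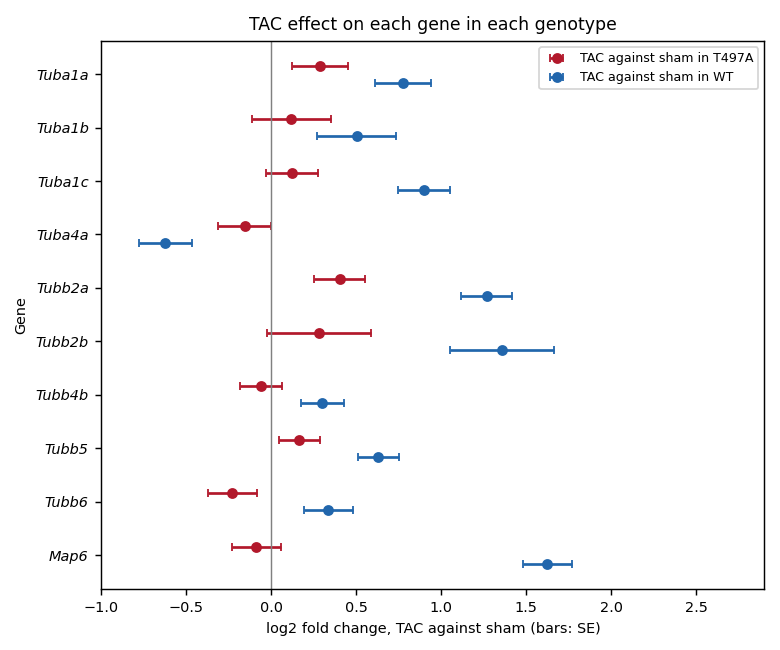
Log2 fold change of TAC against sham for each gene in T497A (red, upper point) and in WT (blue, lower point), with bars of 1 SE. The WT value is farther from 0 than the T497A value for each of the 10 genes. Map6 was chosen for the distance between its points.

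The mix of alpha tubulin messages changed with the levels of single genes. Levels of different genes were compared as CPM per kilobase of merged exon, and each gene's share was taken of the sum over the 4 alpha tubulin genes described here. Tuba4a made up 75.3, 74.5 and 80.6% of that sum in T497A TAC libraries and 82.0, 77.2 and 83.9% in T497A sham libraries, against 66.9, 68.2 and 63.8% in WT TAC libraries and 82.7, 82.3 and 84.9% in WT sham libraries. It was the largest share in every library and lowest in the 3 WT TAC libraries, where Tuba1a, Tuba1b and Tuba1c together made up the remainder of this sum. The means were 76.8% ± 3.3 in T497A TAC, 81.0% ± 3.47 in T497A sham, 66.3% ± 2.27 in WT TAC and 83.3% ± 1.37 in WT sham (SD, n = 3 each). The summed Tuba1a, Tuba1b and Tuba1c level was 28.6 ± 3.92 CPM per kb in T497A TAC and 24.5 ± 3.77 in T497A sham, against 40.3 ± 5.66 in WT TAC and 24.3 ± 1.69 in WT sham.

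Libraries of TAC and sham overlapped in the Tuba4a share in T497A (difference -4.22 percentage points, two-sided exact permutation p = 0.2) and did not overlap in WT (-17.0 points, exact permutation p = 0.1). After TAC the T497A libraries lay above the WT libraries by 10.5 points without overlap (exact permutation p = 0.1), and after sham they overlapped (-2.28 points, exact permutation p = 0.4). With 3 libraries on each side 0.1 is the smallest p such a test can give, and over the 8 tests of shares the adjusted exact permutation p was 0.16 or more. The shares depend on the length used: with only the 75-base windows that occur in no other gene as length, the mean Tuba4a share was 59.2% in T497A TAC, 65.3% in T497A sham, 46.5% in WT TAC and 68.7% in WT sham. The order of the 4 groups was the same under both lengths.

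The sum of 4 genes leaves out Tuba8, an alpha tubulin found in heart, skeletal muscle and testis, which had more CPM than Tuba1a, Tuba1b or Tuba1c. Tuba8 averaged 95.7 ± 9.84 CPM in T497A TAC and had 93.8, 92.3 and 123 CPM in the T497A sham libraries, against means of 97.1 ± 5.28 CPM in WT TAC and 102.9 ± 4.9 CPM in WT sham, and its log2 fold change of TAC against sham was -0.11 ± 0.107 in T497A (adjusted p = 0.772) and -0.08 ± 0.107 in WT (adjusted p = 0.616). With Tuba8 and the 3 other alpha tubulin genes of the table, which were near 0, added to the sum after the data were seen, the Tuba4a share was 57.2% ± 4.38 in T497A TAC and 60.1% ± 2.43 in T497A sham, against 48.7% ± 2.08 in WT TAC and 63.5% ± 1.47 in WT sham. Tuba4a was still the largest share in every library and lowest in the 3 WT TAC libraries, but the difference between TAC and sham was less wide, at -2.94 percentage points in T497A (exact permutation p = 0.5) and -14.8 points in WT (exact permutation p = 0.1).

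Among the 5 beta tubulin genes, Tubb4b held the largest share per kilobase in every library, with means of 55.8% ± 4.76 in T497A TAC, 59.2% ± 1.81 in T497A sham, 49.6% ± 0.772 in WT TAC and 57.4% ± 1.43 in WT sham. Tubb2a held 10.5, 10.6 and 12.6% in T497A TAC libraries and 10.4, 8.92 and 7.27% in T497A sham libraries, against 15.3, 13.2 and 15.1% in WT TAC libraries and 8.36, 9.00 and 8.53% in WT sham libraries. The Tubb2a share was higher after TAC without overlap in both genotypes, by 2.35 points in T497A and 5.92 points in WT (exact permutation p = 0.1 for each). Over these members alone, the summed level was 124 ± 16.5 CPM per kb for the 4 alpha genes in T497A TAC, where the 5 beta genes summed to 89.5, 96.9 and 113.5 in the 3 libraries. In T497A sham it was 131 ± 24.9 for alpha and 97.9 ± 12.6 for beta. In WT TAC it was 120.0 ± 12.1 for alpha and 126 ± 10.5 for beta, and in WT sham 146 ± 12.3 and 88.4 ± 3.96. With the other alpha and beta genes of the table added, Tuba8 among them, the alpha sum was above the beta sum in each group: 166.6 ± 14.6 and 101.4 ± 12.3 in T497A TAC, 176.7 ± 32.4 and 99.4 ± 12.7 in T497A sham, 162.5 ± 13.3 and 128.2 ± 10.5 in WT TAC, and 191.9 ± 14.5 and 89.9 ± 4.36 in WT sham.

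**Figure D3:**
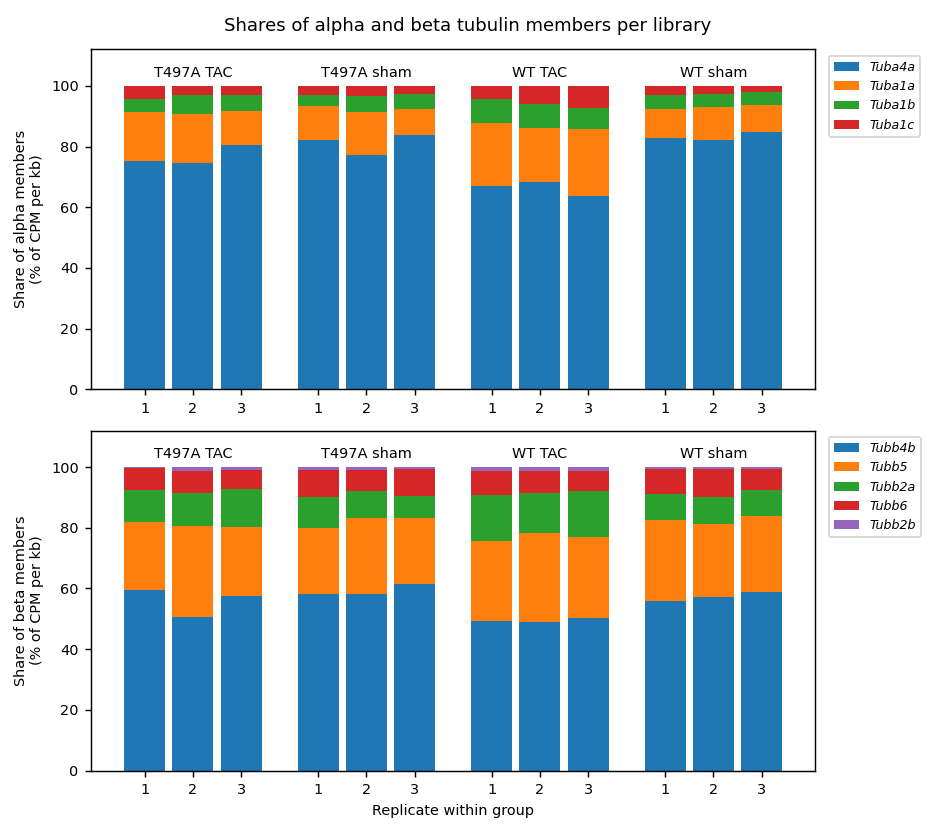
Share of each gene in the summed level (CPM per kilobase of exon) of the 4 alpha tubulin genes (upper panel) and the 5 beta tubulin genes (lower panel), with 1 bar per library and replicates numbered within each group. The Tuba4a part is shortest and the Tubb2a part widest in the 3 WT TAC libraries.

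Set side by side after TAC, T497A hearts held less Tuba1c, Tubb2a and Tubb5 message than WT hearts. These 3 of 9 tubulin genes were called lower, where 8.7% of all tested genes were called in either direction and 4.06% were called lower. These comparisons use the same WT TAC libraries as the WT comparison of TAC and sham, so the 2 sets of values are not independent. The log2 fold change of T497A against WT was -0.74 ± 0.152 for Tuba1c (1.67-fold lower, adjusted p = 0.00986), -0.70 ± 0.148 for Tubb2a (1.62-fold lower, adjusted p = 0.0123) and -0.45 ± 0.121 for Tubb5 (1.37-fold lower, adjusted p = 0.0365). Each call was lost in at least 1 fit that left out a library. Tuba1c had an adjusted p of 0.056 without WT TAC replicate 3. Tubb2a had 0.0685 without WT TAC replicate 3 and 0.0541 without T497A TAC replicate 1, and 0.057 when only the compared groups were fitted. For Tubb5 the adjusted p was 0.0643 to 0.139 without WT TAC replicate 1, 2 or 3 or T497A TAC replicate 1 or 3, and 0.0695 when only the compared groups were fitted.

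The other 6 tubulin genes did not pass the test between genotypes after TAC. Their log2 fold changes were -0.82 ± 0.299 for Tubb2b (adjusted p = 0.11), -0.44 ± 0.163 for Tuba1a (adjusted p = 0.118), -0.46 ± 0.231 for Tuba1b (adjusted p = 0.25), -0.40 ± 0.144 for Tubb6 (adjusted p = 0.106), -0.16 ± 0.124 for Tubb4b (adjusted p = 0.48) and 0.27 ± 0.156 for Tuba4a (adjusted p = 0.329). The median over the 9 genes was -0.453, against 0.00277 over all tested genes. T497A libraries lay below WT libraries without overlap for 6 of 9 tubulin genes. Over all tested genes 13.6% lay lower without overlap, and 28.0% did not overlap in either direction. With near-identical genes summed, the Tuba1a, Tuba1b and Tuba1c sum was lower in T497A (-0.51 ± 0.13, adjusted p = 0.0308), as was the Tubb2a and Tubb2b sum (-0.71 ± 0.151, adjusted p = 0.0126).

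After sham surgery 0 of 9 tubulin genes were called between genotypes, where 0.0254% of all tested genes were called. At an unadjusted p under 0.05 the count was also 0, where 477 of all 15764 tested genes were under that threshold. DESeq2 and limma-voom called 0. The log2 fold changes of T497A against WT after sham ran from -0.19 for Tuba4a to 0.26 for Tubb2b, with a median of 0.0429. The libraries did not overlap for 1 of 9 genes, Tubb2b, which had 1.79, 1.86 and 1.65 CPM in T497A sham libraries against 1.48, 1.61 and 1.34 CPM in WT sham libraries, and 8.21% of all tested genes did not overlap. Averaged over both surgeries, 0 of 9 tubulin genes were called between genotypes (0.85% of all tested genes). An unadjusted p under 0.05 was found for 3 of the 9, and for 2168 of all 15764 tested genes.

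Whether the TAC effect itself differed between genotypes was tested by the interaction, which subtracts the WT response to TAC from the T497A response. By edgeR 0 of 9 tubulin genes passed, where 1.57% of all tested genes were called. An unadjusted p under 0.05 was found for 5 of the 9, and for 2647 of all 15764 tested genes. DESeq2 called 2, Tubb2a and Tuba1c, and limma-voom called 0. The largest differences were -1.07 ± 0.431 for Tubb2b (adjusted p = 0.224), -0.86 ± 0.212 for Tubb2a (adjusted p = 0.0591) and -0.78 ± 0.216 for Tuba1c (adjusted p = 0.0843). The value was below 0 for 8 genes and above 0 for Tuba4a (0.47 ± 0.22, adjusted p = 0.317), so in each of the 9 genes the T497A response was numerically the lesser or the opposite of the WT response. A call in WT and no call in T497A is therefore not, for any single tubulin gene, a tested difference between genotypes by edgeR.

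Map6, which binds microtubules and protects them from depolymerization in the cold, was first described in neurons. It had 4.62, 3.29 and 3.78 CPM in T497A TAC libraries and 4.45, 3.85 and 4.11 CPM in T497A sham libraries, against 9.64, 11.0 and 10.9 CPM in WT TAC libraries and 3.32, 3.55 and 3.37 CPM in WT sham libraries. The 3 WT TAC libraries stood above all others, and the other 9 libraries spanned 3.29 to 4.62 CPM. The means were 3.89 ± 0.674 CPM in T497A TAC and 4.14 ± 0.3 CPM in T497A sham, against 10.5 ± 0.775 CPM in WT TAC and 3.42 ± 0.121 CPM in WT sham. These rest on 136 to 207 counts per T497A TAC library and 440 to 477 per WT TAC library.

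As a description, the Map6 log2 fold change of TAC against sham was -0.09 ± 0.146 in T497A and 1.62 ± 0.147 in WT (3.08-fold higher), a difference of -1.71 ± 0.206. After TAC, T497A stood at -1.44 ± 0.145 relative to WT (2.703-fold lower), and after sham at 0.28 ± 0.148. The averaged contrasts are separate sums from the difference that chose Map6, but the same high WT TAC libraries enter both. They also share its estimate of spread, so they are not independent support for it. Their adjusted p-values, from edgeR, are given as a description. Averaged over genotypes, Map6 was higher after TAC by 0.77 ± 0.103 (adjusted p = 0.000184), an average of the 1.62 in WT and the -0.09 in T497A. Averaged over surgeries, Map6 was lower in T497A than in WT by a log2 fold change of -0.58 ± 0.103 (adjusted p = 0.0211). That average joins the -1.44 after TAC with the 0.28 of opposite sign after sham. The call between genotypes was lost, with adjusted p from 0.0574 to 0.0666, without WT sham replicate 2, T497A sham replicate 3, WT TAC replicate 3 or T497A TAC replicate 3. Map6 (chr7:99267447-99337137, plus strand) shares no 75-base window with another annotated gene.

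The genes whose profile over the 12 libraries was nearest to that of Map6 were Nuak1, an AMPK-related kinase, Myo7a, an unconventional myosin of sensory hair cells, Gpx3, a secreted glutathione peroxidase, Carhsp1, an RNA-binding protein, and Tgfb3, a growth factor. Nearness was the root mean square difference of log2 CPM centred on each gene's mean, which was 0.199 for Nuak1, 0.23 for Myo7a, 0.245 for Gpx3, 0.269 for Carhsp1 and 0.271 for Tgfb3, against a median of 0.671 over 9273 genes. Nuak1 averaged 52.3 ± 4.03 CPM in T497A TAC and 46.2 ± 7.62 CPM in T497A sham, against 102 ± 6.52 CPM in WT TAC and 41.3 ± 2.51 CPM in WT sham. Among the tubulin genes, Tuba1c was the nearest to Map6 (rank 40 of those 9273), then Tubb2a (rank 44), and Tuba4a was far off (rank 8660). Between tubulin genes the closest pairs were Tuba1b with Tubb5 (0.174) and Tubb4b with Tubb6 (0.183).

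The regions around the starts of the 3 tubulin genes called lower in T497A after TAC, and of Tuba4a, are shown because Tuba1c, Tubb2a and Tubb5 moved together and Tuba4a moved the other way in WT. They are taken from RefSeq (GRCm38.p6), which gave an entry for 7 of the 10 genes (not for Map6, Tubb2b and Tubb6), and run 5′ to 3′ on the gene's strand from 250 bases before to 50 bases after the annotated start. Capitals mark matches on either strand to the CCAAT box, to the GC box (letters GGGCGG), to the TATA box (letters TATAAA) and to the cyclic AMP response element (CRE, letters TGACGTCA). The CRE was added to the search after the Tubb2a region had been read.
Tuba1c, chr15:99029641-99029940, plus strand: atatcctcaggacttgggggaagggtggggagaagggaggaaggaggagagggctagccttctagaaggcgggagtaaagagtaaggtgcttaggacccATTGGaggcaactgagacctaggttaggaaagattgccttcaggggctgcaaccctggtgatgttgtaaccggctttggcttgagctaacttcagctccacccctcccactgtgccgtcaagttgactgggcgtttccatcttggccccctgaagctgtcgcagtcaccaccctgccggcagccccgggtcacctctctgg
Tubb2a, chr13:34077959-34078258, minus strand: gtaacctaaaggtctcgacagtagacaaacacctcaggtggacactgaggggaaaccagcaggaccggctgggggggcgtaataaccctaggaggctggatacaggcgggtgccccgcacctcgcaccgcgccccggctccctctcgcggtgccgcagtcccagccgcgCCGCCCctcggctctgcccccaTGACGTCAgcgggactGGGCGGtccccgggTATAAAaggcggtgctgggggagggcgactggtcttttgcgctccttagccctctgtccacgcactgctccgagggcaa
Tubb5, chr17:35838252-35838551, minus strand: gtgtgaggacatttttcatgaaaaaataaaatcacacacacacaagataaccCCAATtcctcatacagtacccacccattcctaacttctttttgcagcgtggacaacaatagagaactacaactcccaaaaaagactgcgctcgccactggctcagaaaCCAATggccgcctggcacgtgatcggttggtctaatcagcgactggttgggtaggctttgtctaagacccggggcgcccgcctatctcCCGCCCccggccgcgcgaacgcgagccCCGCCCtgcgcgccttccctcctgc
Tuba4a, chr1:75219245-75219544, minus strand: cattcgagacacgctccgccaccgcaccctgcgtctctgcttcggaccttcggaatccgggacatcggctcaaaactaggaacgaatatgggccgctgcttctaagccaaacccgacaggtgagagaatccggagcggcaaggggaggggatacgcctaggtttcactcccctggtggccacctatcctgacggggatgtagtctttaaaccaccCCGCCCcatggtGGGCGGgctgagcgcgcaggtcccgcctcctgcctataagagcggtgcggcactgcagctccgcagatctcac
Tubb2a held a TATA box at position -29 and a CRE at position -59, counted to the first base of the match from the start, and also 2 GC boxes. Tuba1c held 1 CCAAT box, Tubb5 held 2 CCAAT boxes and 2 GC boxes, and Tuba4a held 2 GC boxes. No matches overlapped. Over 32815 promoters of the same length, 37.39% held a CCAAT box, 35.63% a GC box, 13.62% a TATA box and 1.79% a CRE. None of the 4 motifs was common to all 4 regions.

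The remaining microtubule genes were described with 7 lists that held 111 tested genes. The lists too were chosen with earlier results of these data known, so their counts are descriptions. In T497A 0 of 111 were called between TAC and sham by edgeR, and in WT 37 of 111 (33.3%) were called, 26 higher and 11 lower, against 0.114% of all tested genes called in T497A and 25.0% in WT, 12.3% higher and 12.6% lower. Of those 37, 17 kept their call in each of the 12 fits that left out a library. After TAC 12 of 111 (10.8%) were called between genotypes, 5 higher and 7 lower in T497A, which is near the share of all tested genes (8.7% called, 4.64% higher and 4.06% lower). After sham 0 of 111 were called, where 0.0254% of all tested genes were. The interaction was called for 3 of 111 (2.7%), 2 higher and 1 lower, where 1.57% of all tested genes were called. DESeq2 called 2 of the listed genes in T497A, Map1a and Map1b. 

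Of 18 tested enzymes that modify tubulin, 5 rose and 3 fell in WT after TAC, and 0 were called in T497A, against 12.3% of all tested genes higher and 12.6% lower in WT and 0.114% called in T497A. Ttll1, the catalytic subunit of a tubulin glutamylase, had 34.7, 28.9 and 28.8 CPM in T497A TAC libraries and 46.2, 35.2 and 40.0 CPM in T497A sham libraries, against 14.9, 17.8 and 16.9 CPM in WT TAC libraries and 49.6, 41.5 and 44.0 CPM in WT sham libraries. The WT TAC libraries were the lowest of the 12, and T497A TAC libraries lay between them and the sham libraries. Ttll1 was 2.73-fold lower after TAC in WT (adjusted p = 6.04e-06) and 1.87-fold higher in T497A than in WT after TAC (adjusted p = 0.00084), and its interaction was called (1.05 ± 0.162, adjusted p = 0.0108). Agtpbp1, an enzyme that shortens glutamate chains, had 136, 116 and 108 CPM in T497A TAC libraries and 210.4, 131 and 141 CPM in T497A sham libraries, against 76.1, 79.2 and 78.1 CPM in WT TAC libraries and 169, 144 and 166 CPM in WT sham libraries. Its WT TAC libraries were also the lowest, 2.06-fold below WT sham (adjusted p = 0.00057), and its higher level in T497A than in WT after TAC (1.54-fold, adjusted p = 0.0287) was lost, with adjusted p up to 0.108, without any 1 of the 6 TAC libraries. Agbl2, of the same enzyme family, was 2.32-fold lower after TAC in WT (adjusted p = 0.00128).

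The enzymes of the tyrosine cycle gave smaller differences. Vash1, the carboxypeptidase that removes the terminal tyrosine of alpha tubulin, averaged 12.4 ± 2.66 CPM in T497A TAC and 9.80 ± 1.92 CPM in T497A sham, against 14.5 ± 2.63 CPM in WT TAC and 9.65 ± 0.483 CPM in WT sham. Its partner Svbp averaged 5.84 ± 0.485 CPM in T497A TAC and 5.77 ± 0.197 CPM in T497A sham, against 7.40 ± 0.321 CPM in WT TAC and 5.33 ± 0.658 CPM in WT sham. Both rose in WT, Vash1 by 1.499-fold (adjusted p = 0.0265) and Svbp by 1.39-fold (adjusted p = 0.0153), but Vash1 lost its call without WT sham replicate 1 or 3 or WT TAC replicate 1, and Svbp without WT sham replicate 1 or 3 or WT TAC replicate 2 (adjusted p from 0.0508 to 0.125). Ttl, the ligase that puts the tyrosine back, was not called in either genotype, with 34.3 ± 1.11 CPM in T497A TAC and 31.7 ± 2.29 CPM in T497A sham, against 37.3 ± 3.68 CPM in WT TAC and 31.9 ± 2.55 CPM in WT sham. Ttll7, a glutamylase of beta tubulin, rose 1.67-fold in WT (adjusted p = 0.00216).

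Of 17 tested microtubule-associated stabilizers other than Map6, 5 rose and 2 fell in WT after TAC, where 12.3% of all tested genes rose and 12.6% fell. Map1a, a microtubule-binding protein of neurons, had 17.0, 15.5 and 19.6 CPM in T497A TAC libraries and 12.4, 13.0 and 11.7 CPM in T497A sham libraries, against 31.9, 27.1 and 30.8 CPM in WT TAC libraries and 11.5, 14.4 and 11.7 CPM in WT sham libraries. The WT TAC libraries were the highest and the T497A TAC libraries came next, above all sham libraries. Map1a was 2.39-fold higher after TAC in WT (adjusted p = 1.14e-05) and 1.72-fold lower in T497A than in WT after TAC (adjusted p = 0.0016). Its interaction was called (-0.77 ± 0.161, adjusted p = 0.0355), but 8 of the 12 fits that left out a library lost that call (adjusted p from 0.0524 to 0.0984). Map1b, a relative of Map1a, had 28.0, 36.0 and 28.1 CPM in T497A TAC libraries and 24.2, 24.2 and 21.1 CPM in T497A sham libraries, against 44.5, 48.8 and 50.7 CPM in WT TAC libraries and 26.3, 26.5 and 26.9 CPM in WT sham libraries. It showed the same order of groups, 1.80-fold higher after TAC in WT (adjusted p = 6.41e-05) and 1.56-fold lower in T497A than in WT after TAC (adjusted p = 0.00257). Map4, the main microtubule-associated protein of cardiomyocytes, was 1.16-fold higher after TAC in WT (adjusted p = 0.0215), a call lost without WT sham replicate 2 or 3 or WT TAC replicate 3.

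Of 12 tested destabilizing and severing proteins, 2 rose and 1 fell in WT, a share equal to the 25.0% called over all tested genes. The fall was that of Fign, a severing enzyme, which had 16.4, 17.98 and 17.6 CPM in T497A TAC libraries and 17.9, 16.9 and 19.4 CPM in T497A sham libraries, against 11.1, 10.7 and 8.90 CPM in WT TAC libraries and 21.3, 20.7 and 23.0 CPM in WT sham libraries. T497A TAC and T497A sham libraries overlapped, and the WT TAC libraries lay below every other library. The T497A sham libraries also lay below the WT sham libraries, a difference that was not called but enters the interaction. Fign was 2.11-fold lower after TAC in WT (adjusted p = 1.31e-05) and 1.69-fold higher in T497A than in WT after TAC (adjusted p = 0.000988), with a called interaction (1.02 ± 0.142, adjusted p = 0.00747). Of 17 tested motor proteins 5 rose and 1 fell in WT, where 12.3% of all tested genes rose and 12.6% fell. Kif5b, a widely expressed kinesin heavy chain, was 1.65-fold higher (adjusted p = 0.000179), and Dync1li1, a dynein light intermediate chain, was 1.63-fold higher (adjusted p = 0.000113). After TAC Kif5b, its light chain partner Klc1 and Dync1li1 were 1.36-fold, 1.29-fold and 1.38-fold lower in T497A than in WT, with adjusted p of 0.0143, 0.0183 and 0.00711.

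Of 22 tested folding factors 3 rose in WT (Tbca by 1.245-fold, Tbcb by 1.28-fold and Pfdn1 by 1.25-fold), against 12.3% of all tested genes called higher. Of 17 end-binding and nucleation proteins 5 rose and 4 fell in WT, where 12.3% of all tested genes rose and 12.6% fell. Among 8 other tubulin genes that were tested, Tubb3, the neuronal beta tubulin, was the 1 called in WT, at 2.38 ± 0.631 CPM in WT TAC and 0.423 ± 0.26 CPM in WT sham (5.51-fold, adjusted p = 0.00786). Of the 12 listed genes called between genotypes after TAC, 5 kept their call in each of the 12 fits that left out a library, namely Ttll1, Map1a, Map1b, Fign and Dync1li1. The other 7 lost it in at least 1, with adjusted p up to 0.169, and Ttll12 and Tubd1 lost it in 11 and 10 of them.

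**Figure D4:**
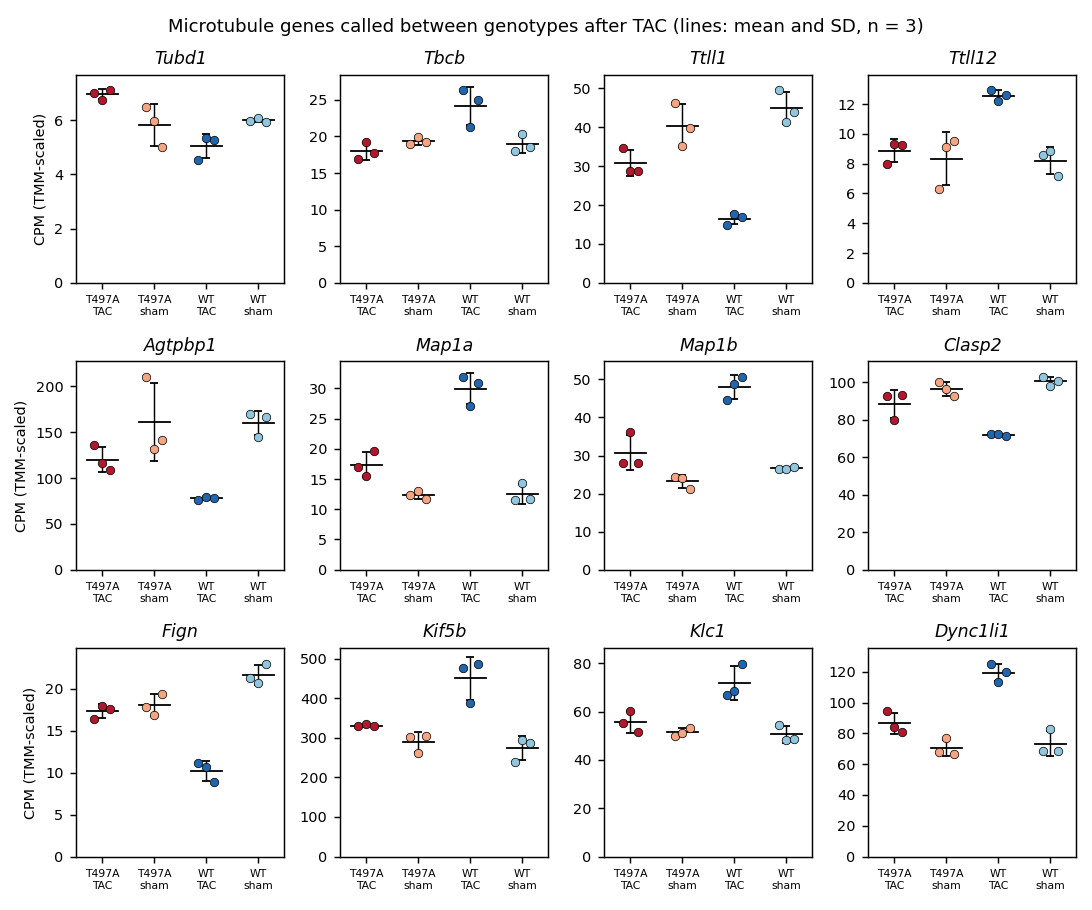
Level in CPM (TMM-scaled, linear axes from 0) of the 12 listed microtubule genes called between T497A and WT after TAC. Each point is a library, and the lines are the mean and SD of 3 libraries. For Map1a, Map1b, Kif5b, Dync1li1, Ttll12 and Tbcb the WT TAC libraries are the highest, and for Ttll1, Agtpbp1, Fign and Clasp2 they are the lowest.

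Markers of other cells moved with these genes in bulk tissue, where fewer cells of a type and less RNA per cell cannot be told apart. The summed level of 9 fibroblast markers was 2333 to 2634 CPM in T497A TAC libraries and 1817 to 2178 CPM in T497A sham, against 3306 to 3776 CPM in WT TAC and 1846 to 1904 CPM in WT sham. Macrophage and leukocyte markers summed to 205 to 271 CPM in T497A TAC and 176 to 215 CPM in T497A sham, against 249 to 315 CPM in WT TAC and 153 to 179.8 CPM in WT sham. Cell cycle genes summed to 9.55 to 41.6 CPM in T497A TAC and 15.2 to 28.4 CPM in T497A sham, against 47.1 to 52.2 CPM in WT TAC and 19.0 to 20.5 CPM in WT sham. In WT, 5 of 9 fibroblast, 7 of 9 macrophage and 7 of 10 cell cycle markers were called higher after TAC. There 5 of 8 cardiomyocyte markers were called lower, and 0 of 8 endothelial markers were called. Of all tested genes 12.3% were called higher and 12.6% lower in WT. In T497A 0 markers of these lists were called. After TAC 3 fibroblast, 1 macrophage and 2 cell cycle markers were called lower in T497A than in WT (4.06% of all genes). In the same comparison 2 cardiomyocyte markers were called higher (4.64% of all genes). Cardiomyocyte markers summed to 56162 to 58813 CPM in T497A TAC and 57986 to 67381 CPM in T497A sham, against 45412 to 54689.97 CPM in WT TAC and 63026 to 73549.9 CPM in WT sham. Nerve and Schwann cell markers, of which 7 of 11 were tested and which include Tubb3, summed to 13.9 to 18.1 CPM in T497A TAC and 15.9 to 18.8 CPM in T497A sham, against 29.7 to 32.7 CPM in WT TAC and 15.8 to 17.8 CPM in WT sham. In that list, in WT after TAC, Tubb3 and Uchl1 rose and the Schwann cell gene Sox10 fell. Th was at 0 in T497A TAC, T497A sham and WT sham, and Snap25 was at 0 in T497A TAC and WT sham. Of 8 smooth muscle and pericyte markers 1 was called higher in WT. Of 8 skeletal muscle markers 7 were tested, and Acta1, an actin that adult heart also expresses at a low level, was the 1 called in WT (13.1-fold higher, adjusted p = 0.00503). That list summed to 673 to 1872 CPM in T497A TAC and 345 to 424 CPM in T497A sham, against 2134 to 4302 CPM in WT TAC and 102 to 483 CPM in WT sham, of which Acta1 alone gave 671 to 1871 CPM in T497A TAC, 334.5 to 405.4 CPM in T497A sham, 2105 to 4299 CPM in WT TAC and 100.9 to 472.7 CPM in WT sham. The part of these cells, and of the mitochondrial share, in the tubulin and Map6 results was not tested.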

How the data were processed

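The authors deposited whole-number read counts for 55401 genes in 12 libraries, with no normalization. Per the submitters' processing notes, the build was mm10 and the tools included limma 3.50.3, Subread 1.6.3 with featureCounts, STAR 2.7.3a and Trim Galore 0.6.4. Not given in the sources used here are the annotation, the use of strand and the handling of reads that match several genes. Libraries were made from total RNA with an mRNA kit and read single-end for 75 cycles, per the labels' protocols. Groups come from the titles, and replicates were numbered in accession order. No library was a copy of another in its group (chi-square per degree of freedom of counts between replicates, 23.15 to 63.3 over 12 pairs). Pairs from different groups were not compared in this way.

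Counts were fitted with edgeR 4.0.16 in R 4.3.3: filterByExpr with a minimum count of 10 (15764 genes), TMM factors, robust glmQLFit and glmQLFTest in 1 model of the 4 groups, and Benjamini-Hochberg adjustment over all tested genes with a threshold of 0.05. The common biological coefficient of variation was 17.2%. SE is the size of the log2 fold change over the square root of F. Profiles used log2 CPM with a prior count of 2 and genes of at least 5 CPM. The fit was tested on simulated data. Positions, exon lengths and coding ends are from GENCODE M21, matched by identifier to 55141 rows. Shares were compared with scipy 1.17.1.

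The members and lists were chosen with earlier results of these data known. Named are all members, the 5 profiles nearest to Map6, the nearest member of each member, and called or abundant listed genes. Alternatives were RLE, upper quartile and no scaling factors, other filters, mitochondrial genes left out, DESeq2 1.42.0, limma-voom (limma 3.58.1), only the compared groups, and each library left out. Summing near-identical genes, adding other alpha and beta tubulins to the shares, and all alternatives for listed genes were added after the data were seen.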

Additional observations from a re-analysis of the deposited data

Results flagged for a closer look

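Map6 is the 1 gene singled out, because its effect of TAC differed between genotypes: the log2 fold change in T497A minus that in WT was -1.713. The value was -0.09 ± 0.146 in T497A and 1.62 ± 0.147 in WT (SE, n = 3 libraries in each group). Since Map6 was chosen for this difference, no test of it is given. It ran from -1.82 to -1.71 under 8 other scalings, filters and tools, and from -1.85 to -1.60 with each library left out.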

How the results depend on the processing

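No paired analysis was possible because the titles all bear 1 replicate number, and numbers given in accession order pair no libraries. Scaling by library totals alone moved the median log2 fold change of all genes to 0.199 in WT, 0.0803 in T497A and -0.131 between genotypes after TAC, and Tubb5 after sham became -0.0082. The number of tubulin genes called between genotypes after TAC, 3 of 9, was 5 with library totals alone and 5 with no low-count filter. It ran from 0 (without WT TAC replicate 3) to 3 when each library was left out, and was 1 without T497A TAC replicate 1. The interaction count, 0 by edgeR, was 1 with library totals alone, 4 with no low-count filter and 2 with DESeq2, and 0 to 1 when each library was left out. The count between genotypes averaged over surgeries, 0, was 2 with no low-count filter. The cause of these changes was not tested. The shares of all tested genes called under these settings are not given, here or for the listed genes below. These moves therefore cannot be told from a change in calls over all genes. The count in WT ran from 4 of 6 rows (near-identical genes summed) to 8 of 9 genes over the other settings and from 5 to 7 with a library left out. In T497A it was 0 under every setting run. Map6 in T497A, -0.09, turned to 0.0198 without T497A TAC replicate 2 (-0.2298 without T497A TAC replicate 1, the other end of the range). Over all alternatives, 25 values of single genes lost the call, 26 gained it, 13 moved and 1 reversed. The other 1415 kept their side of the threshold or, where no test was given, moved by less than 1 SE (1 SD for shares). A tested value that changed sign was labelled reversed only if it was called before or after. The 1415 therefore include values that were not called and changed direction, such as those of Tubb4b and Tubb5 given above. Of listed genes, 0 to 3 were called in T497A over the other settings (3 with no low-count filter, 2 with DESeq2). In WT 22 were called without WT sham replicate 1 and 24 without WT TAC replicate 1. Between genotypes after TAC 25 were called with library totals alone, 5 without WT TAC replicate 3 and 6 without T497A TAC replicate 1 or 3. The mean Tuba4a and Tubb2a shares moved with length, and the Tuba4a share with the genes summed, as given above. Tubb2b, with 45 counts in its lowest library, had the widest SE of the 9 tubulin genes (0.306 in WT).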
